A study of Canis lupus familiaris with 17 samples.

Results

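The cells described here are T cells of canine blood in which no transcript of the co-receptors CD4 and CD8A was captured but transcripts of several genes were, out of a set of 9 genes that the study assigned to double-negative T cells. They were chosen one barcode at a time from counts of unique molecular identifiers (UMIs, each standing for 1 captured RNA molecule). A cell was taken when it held at least 1 UMI of CD3E, no UMI of MS4A1, CD8A, CD4 or GZMB, and UMIs of at least 3 of the 9 program genes KIAA0825, TMEM132D, KANK1, NMB, SYNJ2, BICDL1, SLF1, ID3 and KIAA1549. This gate kept 1783 cells of the 93013 barcodes in the series, which is 1783 of 84361 barcodes within the study's limits on genes, UMIs and mitochondrial counts and 1783 of 45718 T cells (CD3E detected, MS4A1 not detected). They are called gated T cells below. The 5 gate conditions and the 9 genes fixed what these cells express of those 14 genes, so those levels are a description of the choice and not a result.

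The study profiled circulating leukocytes of 7 healthy dogs and 10 dogs with osteosarcoma (OS), a malignant bone tumor. All dogs were recorded as wild type. The healthy dogs were client-owned and middle-aged, and the dogs with OS had a primary tumor in place, had received no treatment and gave blood before amputation. Of the 10 dogs with OS 5 were 9 years or older, an age that no healthy dog had reached. Both groups held males and females, breeds were largely different between them, and intact males occurred only among the dogs with OS. The effect of breed was not tested. No group was exposed to an experimental agent. Mononuclear cells were taken from whole blood by density centrifugation, red cells were lysed, and 3′ libraries were made on a droplet instrument loaded for 5000 cells a dog. A dog gave between 38 and 192 gated T cells, and retained barcodes per dog lay between 1239 (dog 3 with OS) and 7072. The median gated T cell held 5725 UMIs and 2085 genes, against 5541 UMIs and 2057 genes for all T cells. Scrublet marked 76 of the 1783 cells as doublets, and no barcode of a gated T cell was used in more than 1 dog, although 1124 of 91883 distinct barcodes occurred in 2 or more matrices.

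T cells recognise antigen through a receptor that is held at the surface by the CD3 chains. Most carry either CD4, which binds MHC class II, or CD8, which binds MHC class I. T cells with neither are few in blood. They include gamma-delta T cells as well as cells with the usual alpha-beta receptor, and cells of the second kind have been described as regulatory in mice and humans. CTLA4, an inhibitory receptor that competes with CD28 for its ligands on antigen-presenting cells, was named with the program but was not used in the gate. Genes for the receptor constant regions (TRAC, TRBC1, TRBC2, TRDC, TRGC1), for CD247 and for CD8B had no entry under these names, so alpha-beta and gamma-delta cells could not be told apart by the receptor, and CD8B was not examined.

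The name was checked on cells chosen without CD4, CD8A and GZMB. Of the 3550 T cells with at least 3 program genes, 36.7% held a CD4 UMI (exact binomial 95% interval 35.1 to 38.3), and the share lay between 19.6 and 49.2% in single dogs. Of T cells with none of the 9 genes 28.7% did. A CD8A UMI was found in 11.4%, against 21.6% of T cells with none. The median T cell of the first group held more UMIs (6473.5) than the median T cell (5541). Cells with at least 2000 UMIs were therefore thinned to that depth, and cells with fewer were left out. The CD4 share was then 10.3% of the 634 cells that still showed at least 3 genes and 16.8% of the 25458 that showed none. The order of the 2 shares thus turned after thinning. Thinning also changed which cells were in each group, so the effect of depth and that of the cells counted cannot be told apart. At the depth of the files a large share of the T cells with at least 3 program genes held a CD4 transcript. The data went against the name for these cells: with 3 program genes, being CD4-negative was a condition of the gate and not a property found beside the program.

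The name was better borne out where more of the program was detected. The share of T cells with a CD4 UMI was 41.6% at exactly 3 program genes and 35.5% at 4, then 25.4% at 5, 10.8% at 6, 2.44% at 7, 8.89% at 8 and 0 at 9. The share with a CD8A UMI was 12.2% at 3 genes, 5.24% at 5 and 7.69% at 6. Neither gene was found in 50.5% of T cells with none of the program genes (49.8 to 51.1), 53.1% with at least 3, 63.5% with at least 4, 78.5% with at least 5 (74.7 to 82.0) and 86.6% with at least 6 (81.9 to 90.4). B cells, which should lack both, held a CD4 UMI in 1.34% of 4337 cells and a CD8A UMI in 0.161%. The CD4 share of 16.1% in the 516 T cells with at least 5 genes was above that of B cells. The source of these UMIs was not tested. In single dogs the CD4 share of T cells with at least 5 genes lay between 0 and 40.0%. Thinned to 2000 UMIs, 2.97% of 101 T cells with at least 5 genes held CD4 and none held CD8A, an interval that reaches 3.59%, against 0.928% and 0.161% of B cells. All these intervals cover counting error only.

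**Figure D1:**
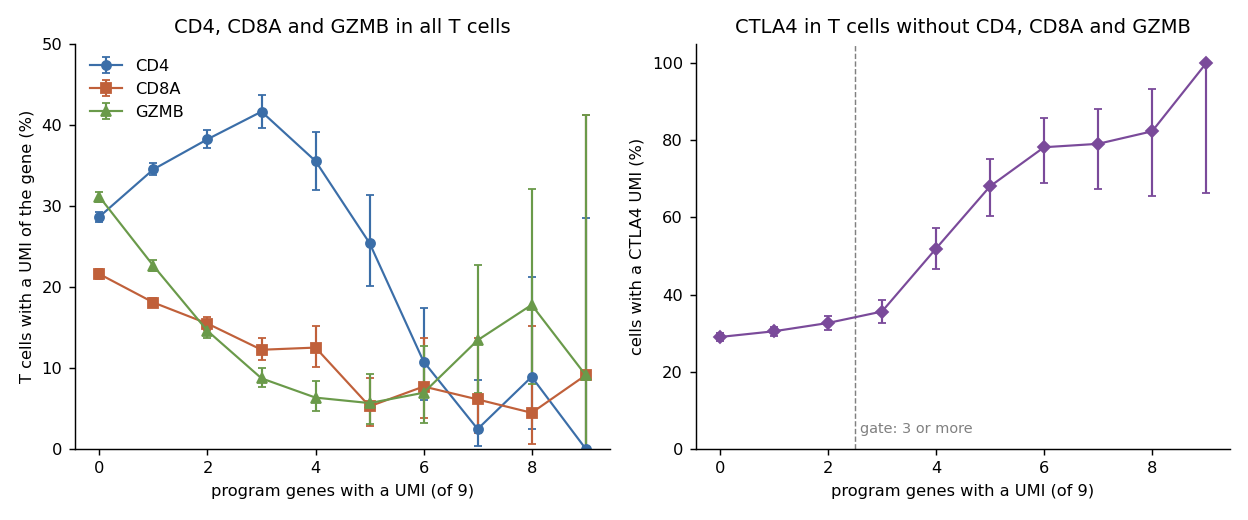
Percent of T cells with a CD4, CD8A or GZMB UMI (vertical axis) by the number of the 9 program genes detected (horizontal axis), before any condition on these 3 genes (left), and percent with a CTLA4 UMI in T cells without CD4, CD8A and GZMB UMIs (right), with exact binomial 95% intervals. The CD4 share was 28.7% at 0 genes, peaked at 41.6% at 3 genes and was 10.8% at 6 genes, while the CTLA4 share was 35.6% at 3 and 78.2% at 6 genes.

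The gate thus joined cells that differed in how much of the program they held. Exactly 3 program genes were found in 1042 gated T cells (58.4%), 4 in 364 (20.4%) and 5 in 166 (9.31%), while 101 cells held 6, 67 held 7, 34 held 8 and 9 held all 9. The 1042 cells at the threshold had a median of 5858 UMIs and the 166 cells with 5 genes a median of 5195.5, so a larger number of genes up to 5 did not come with more UMIs, whereas the 34 cells with 8 genes had a median of 7624. The 2948 T cells just outside the threshold, with 2 program genes and no CD4, CD8A or GZMB UMI, are given beside them where levels are listed by number of genes. In what follows the 377 cells with at least 5 of the 9 genes are called high-program cells. That threshold was chosen after the values were seen, and comparisons that use it are descriptions. Between 2 and 48 high-program cells were found in a dog, and 14 dogs (7 healthy, 7 with OS) had at least 10.

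Among the 9 genes the highest mean levels over 17 dogs, in CPM (a gene's UMIs scaled to a common total of the summed cells' UMIs), were those of KIAA0825 at 188 ± 65.8 (SD), KANK1 at 187 ± 64.9, BICDL1 at 182 ± 55.6 and TMEM132D at 179 ± 103. KANK1 organises the actin cytoskeleton at the cell edge, BICDL1 is an adaptor for cargo transport along microtubules, and TMEM132D is a cell-surface membrane protein. NMB, which encodes the peptide neuromedin B, was at 149 ± 90.4 CPM. SLF1, which takes part in the repair of DNA cross-links, was at 129 ± 27.4 CPM. KIAA1549 was at 102 ± 34.1 CPM. SYNJ2, a phosphoinositide phosphatase, was at 89.6 ± 31.1 CPM, and ID3, an inhibitor of E-protein transcription factors that is induced by T cell receptor signals, was at 73.5 ± 25.9 CPM. TMEM132D had the widest range between dogs, from 17.1 to 423 CPM, and SLF1 lay between 72.3 and 177 CPM. These genes chose the cells, and their height here follows from the gate. CD3E, required at 1 UMI in all T cells compared, stood at 894 ± 146 CPM in gated T cells and 894 ± 107 CPM in CD4+ T cells.

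For the description of all other genes, gated T cells were set beside 3 populations of T cells of the same dog, each with fewer than 3 program genes. These were 12897 CD4+ T cells (CD4 detected, CD8A and GZMB not), 2133 CD8A+ T cells (CD8A detected, CD4 and GZMB not) and 10073 GZMB+ T cells (GZMB, the granzyme B of cytotoxic cells, detected, CD4 not). Counts were summed per dog, 1 CPM was added, and a gene was counted when the mean log2 ratio over dogs was beyond 1 in size and had the same sign in every dog. Cells chosen by a gate differ from cells chosen against it by construction, so no p is given. One UMI was worth between 0.777 and 5.12 CPM in the sums of gated T cells, and between 3.36 and 17.2 CPM in those of high-program cells, and ratios of genes with few UMIs are accordingly rough.

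Against CD4+ T cells 19 of 14063 genes were counted higher in gated T cells (0.135%) and 28 lower (0.199%). Against CD8A+ T cells 21 of 12264 genes were higher (0.171%) and 40 lower (0.326%). Against GZMB+ T cells 189 of 13605 were higher (1.39%) and 399 lower (2.93%). In high-program cells more genes were counted against CD4+ T cells, 82 of 13733 higher (0.597%) and 291 lower (2.12%). Against CD8A+ T cells 49 of 11397 were higher (0.430%) and 98 lower (0.860%). Against GZMB+ T cells they had 131 of 12957 genes higher (1.01%) and 468 lower (3.61%). With 10 CPM added in place of 1, the counts for gated T cells were 12 higher and 9 lower against CD4+, 13 and 36 against CD8A+, and 142 and 265 against GZMB+ T cells, so the larger number of lower than higher genes against CD4+ T cells depended on this choice. For high-program cells they were 69 and 115 against CD4+, 42 and 79 against CD8A+, and 115 and 343 against GZMB+ T cells. In the same 14 dogs gated T cells had 29 genes higher and 56 lower than CD4+ T cells with 1 CPM added. The CD8A+ sums were the shallowest of the 3, which limits how many genes can be counted there.

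CTLA4 was the one marker outside the gate. The study had picked it together with the 9 program genes as markers of 1 cluster, with gene lists made on the healthy dogs examined here, so its level is a description and not an independent check. It stood at a lowest, median and highest level of 88.8, 177 and 327 CPM over the 17 dogs in gated T cells, and at 257, 439 and 584 CPM over the 14 dogs in high-program cells. CD4+ T cells lay between 78.5 and 177 CPM (127 ± 27.9), CD8A+ T cells at 58.2 ± 23.8 CPM and GZMB+ T cells between 3.77 and 26.4 CPM. Every dog's high-program cells were thus above every dog's CD4+ T cells, while the gated T cells as a whole overlapped with them. The mean log2 ratio of gated T cells was 0.57 ± 0.44 against CD4+ T cells, which did not meet the rule, 1.78 ± 0.59 against CD8A+ T cells and 3.82 ± 0.81 against GZMB+ T cells. In high-program cells it was 1.69 ± 0.22, 2.77 ± 0.49 and 4.98 ± 0.71. Between neighbours in this order, the levels of gated T cells and CD4+ T cells overlapped between dogs, while within a dog gated T cells were higher in 15 of 17 dogs.

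CTLA4 also rose with the number of program genes among T cells without CD4, CD8A and GZMB UMIs. A CTLA4 UMI was found in 29.0% of cells with none of the genes, 32.6% with 2 and 35.6% with 3, just outside and just inside the threshold. It was found in 51.9% with 4 genes, 68.1% with 5 (60.4 to 75.1), 78.2% with 6 (68.9 to 85.8) and 9 of 9 cells with all 9. B cells held it in 2.21% of cells. The pooled level went from 104 CPM with 2 program genes to 124 with 3, 202 with 4, 313 with 5 and 455 with 6 to 9. These levels pool dogs that gave unequal numbers of cells. Within a dog (at least 10 cells of each kind) CTLA4 was higher with 3 genes than with 2 in 13 of 17 dogs, in 7 of 7 healthy dogs and 6 of 10 with OS. It was higher in high-program cells than in 3-gene cells in 14 of 14 dogs (means 412 and 132 CPM). Since CTLA4 and the program genes were picked as markers together, a rise of one with the other follows in part from that choice.

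**Figure D2:**
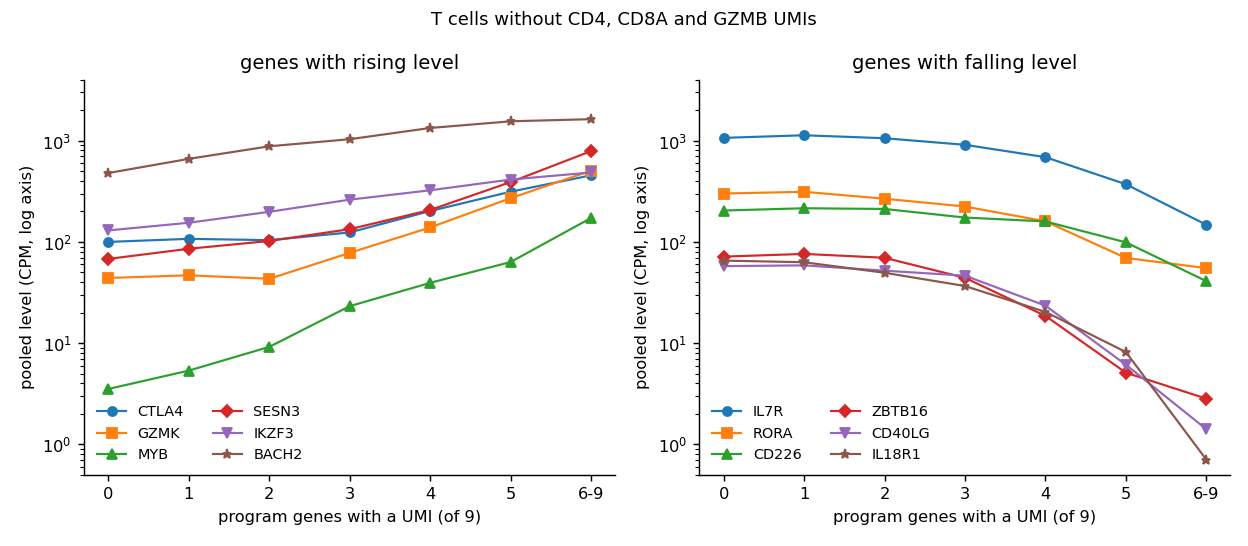
Pooled level in CPM (log axis) of genes outside the gate in T cells without CD4, CD8A and GZMB UMIs, by number of the 9 program genes detected. CTLA4, GZMK, MYB, SESN3, IKZF3 and BACH2 (left) were higher at 6 to 9 genes than at 3, and IL7R, RORA, CD226, ZBTB16, CD40LG and IL18R1 (right) were lower.

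MYB and SESN3 were the only genes counted higher in gated T cells against all 3 populations. MYB encodes a transcription factor of blood progenitors and of developing and self-renewing T cells. It stood at a lowest, median and highest level of 11.7, 44.4 and 119 CPM in gated T cells and 48.5, 123 and 354 CPM in high-program cells, against 1.72 to 6.46 CPM in CD4+ T cells. Each dog's gated T cells were above each dog's CD4+ T cells. The log2 ratio of MYB in gated T cells was 3.14 ± 0.69 against CD4+, 2.49 ± 1.67 against CD8A+ and 3.91 ± 0.83 against GZMB+ T cells. SESN3, a sestrin that restrains growth signalling under stress, had ratios of 1.38 ± 0.41, 1.36 ± 0.72 and 1.77, and levels of 97.7 to 485 CPM in gated T cells and 403 to 917 CPM in high-program cells against 48.9 to 160 CPM in CD4+ T cells. Pooled by number of program genes, MYB went from 3.53 CPM at none to 23.2 at 3 and 172 at 6 to 9, and SESN3 from 67.9 to 134 and 789 CPM. PRUNE2 (log2 ratios −1.85, −1.85 and −3.04), ACOXL (−1.20, −2.05 and −3.63) and ANTXR2 (−1.08 against CD4+ T cells) were the 3 genes counted lower against all 3 populations.

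Of the 17 cytotoxic genes measured, GZMK and CTSW were counted higher than in CD4+ T cells and none was lower, with a list median of −0.76 beside −0.08 over all genes tested. GZMK encodes granzyme K, a protease of memory and early effector T cells, and CTSW encodes cathepsin W, a protease of cytotoxic lymphocytes. GZMK stood at a lowest, median and highest level of 64.6, 139 and 490 CPM in gated T cells, against 7.36, 38.3 and 103 CPM in CD4+ T cells. In high-program cells it was at 184, 454 and 814 CPM, overlapping with GZMB+ T cells (346 ± 137 CPM) and with a log2 ratio to them of 0.42 ± 0.55. CTSW was at 173 ± 43.8 CPM in high-program cells, beside 182 ± 69.1 CPM in CD8A+ T cells and 7.19 to 24.7 CPM in CD4+ T cells, and its log2 ratio to CD4+ T cells was 2.84 ± 0.55 in gated and 3.52 ± 0.40 in high-program cells.

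Many cytotoxic genes were lower than in CD8A+ and GZMB+ T cells. Against CD8A+ T cells 9 of the 17 measured were lower and none higher in gated T cells (median −3.19 beside 0.03 over all genes), and against GZMB+ T cells 14 were lower and none higher (median −5.60 beside −0.10). GZMB itself separated gated from GZMB+ T cells by the gate. Against the other T cells without CD4, CD8A and GZMB UMIs, which lack GZMB as well, 2 of the 17 were higher and 2 lower (median −1.98 beside −0.09). Against GZMB+ T cells the NK cell receptor genes KLRB1 and NCR3 had log2 ratios of −7.59 ± 1.48 and −7.98 ± 1.33, and the chemokine CCL5 one of −8.40 ± 2.31. GZMA, granzyme A, gave 2 UMIs in all gated T cells and 0 in high-program cells, where a count of 0 allows up to 1.25 CPM over the dogs (3 UMIs of the pooled total), against 233 to 1576 CPM in GZMB+ T cells. PRF1, perforin, stood at 0 to 5.91 CPM in gated T cells and 16.7 to 86.6 CPM in GZMB+ T cells. IL12RB2, a chain of the interleukin-12 receptor, was at 15.1 ± 13.9 CPM in gated T cells against 226 ± 193 CPM in CD8A+ and 716 ± 341 CPM in GZMB+ T cells. In high-program cells the counts were 2 higher and 2 lower against CD4+, 1 and 10 against CD8A+, and 0 and 14 against GZMB+ T cells.

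Of the genes of naive and central memory T cells, some were higher than in GZMB+ T cells. None of the 11 measured was counted in either direction against CD4+ T cells (median 0.30) or CD8A+ T cells (median 0.35), and 5 were higher and none lower against GZMB+ T cells (median 1.61). The 5 were CCR7, the lymph node homing receptor (log2 ratio 4.71 ± 1.07), the transcription factors LEF1 (3.36 ± 0.73) and TCF7 (2.44 ± 0.48), BACH2, a repressor that holds back effector genes (2.94 ± 0.50), and FOXP1 (1.61 ± 0.25). LEF1 had a lowest, median and highest level of 816, 1415 and 3015 CPM in gated T cells and 469, 1196 and 2315 CPM in CD4+ T cells, and these overlapped. BACH2 was at 1117 ± 415 CPM in gated T cells, 1507 ± 495 CPM in high-program cells and 652 ± 284 CPM in CD4+ T cells, and in high-program cells it was counted higher against all 3 populations (1.23, 1.46 and 3.30).

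IL7R, the interleukin-7 receptor chain that naive and memory T cells need to persist, was lower in high-program cells than in CD4+ and CD8A+ T cells. Gated T cells stood at a lowest, median and highest level of 452, 711 and 1137 CPM and CD4+ T cells at 828, 1109 and 2134 CPM. High-program cells stood at 38.3, 223 and 560 CPM, below every dog's CD4+ T cells, with log2 ratios of −2.62 ± 0.97 against CD4+, −2.06 ± 1.07 against CD8A+ and −0.15 ± 1.36 against GZMB+ T cells. The pooled level fell step by step with the number of program genes, from 1057 CPM at 2 to 910 at 3, 687 at 4, 371 at 5 and 148 at 6 to 9. Against both CD4+ and CD8A+ T cells, high-program cells thus had BACH2 counted higher and IL7R counted lower.

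Of 18 co-inhibitory and co-stimulatory receptors measured, none was counted in gated T cells against CD4+ T cells (median −0.31). CTLA4 was higher and CD96 lower (−2.36 ± 1.11) than in CD8A+ T cells. Against GZMB+ T cells 5 were higher (CTLA4, CD28, TNFRSF4, CD40LG and ICOS) and 3 lower (CD160, CD244 and CD96). CD28, the main co-stimulatory receptor of naive T cells, had a log2 ratio of 2.48 ± 0.76 to GZMB+ T cells and was at 114 ± 42.1 CPM beside 136 ± 47.4 CPM in CD4+ T cells. In high-program cells 1 receptor gene was higher and 4 lower than in CD4+ T cells. CD40LG, by which helper T cells license B cells and dendritic cells, stood at 43.6 to 80.7 CPM in CD4+ T cells, 10.8 to 57.0 CPM in gated T cells and 0 to 17.2 CPM in high-program cells, where it gave 8 UMIs. TNFRSF4 (OX40) was at 14.8 ± 8.37 CPM in CD4+ T cells against 1.25 ± 3.20 in high-program cells, and CD226, an activating receptor, was at 223 ± 57.4 against 58.3 ± 32.1 CPM. No inhibitory receptor other than CTLA4 was counted higher in gated T cells. PDCD1 was at 0 to 10.3 CPM in gated T cells and 3.52 to 19.8 CPM in CD4+ T cells, and TIGIT had a median of 0 CPM in gated T cells.

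Among 25 T cell transcription factors measured against CD4+ T cells, EOMES and IKZF3 were higher in gated T cells, and MAF and RORA were among those lower. EOMES, a T-box factor of memory and effector CD8 T cells, was at 8.89 ± 4.52 CPM in gated and 24.2 ± 9.40 CPM in high-program cells against 1.15 ± 0.866 CPM in CD4+ T cells, with log2 ratios of 2.13 ± 0.82 and 3.55 ± 0.79. IKZF3 (Aiolos) was at 316 ± 117 and 451 ± 110 CPM against 116 ± 31.7 CPM. RORA, a factor of memory and type 17 helper cells, had a lowest, median and highest level of 87.2, 188 and 478 CPM in gated T cells, 12.0, 58.4 and 116 CPM in high-program cells and 201, 356 and 664 CPM in CD4+ T cells. The high-program cells of every dog thus lay below every dog's CD4+ T cells in RORA.

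POU2F2, the octamer-binding factor Oct-2, was the only factor of 24 counted higher against CD8A+ T cells (1.35 ± 0.63) and TBX21 (T-bet) the only one lower (−2.96 ± 1.33), and against GZMB+ T cells 3 were higher and 3 lower. TBX21 was lower against GZMB+ T cells as well (−5.22 ± 1.17). In high-program cells ZBTB16, the PLZF factor of innate-like T cells, gave 9 UMIs and stood at 3.05 ± 4.52 CPM, against 32.5 ± 16.6 CPM in CD4+ and 220 ± 129 CPM in GZMB+ T cells. PRDM1 (Blimp-1), which drives effector differentiation, was at 8.18 ± 16.0 CPM in high-program and 51.8 ± 17.5 CPM in CD4+ T cells. The mean in high-program cells joined 0.633 ± 1.68 TMM-scaled CPM in healthy dogs and 15.3 ± 19.5 in dogs with OS, given as a description. One UMI was worth 3.36 to 17.2 CPM in these sums. GATA3 was not counted against any of the 3 populations, at 93.6 ± 42.0 CPM in gated and 102 ± 17.5 CPM in CD4+ T cells. In high-program cells it was at 37.8 ± 10.2 TMM-scaled CPM in healthy dogs and 55.15 ± 28.2 in dogs with OS. The factors counted for high-program cells were 3 higher and 5 lower against CD4+, 1 and 3 against CD8A+, and 2 and 7 against GZMB+ T cells.

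**Figure D3:**
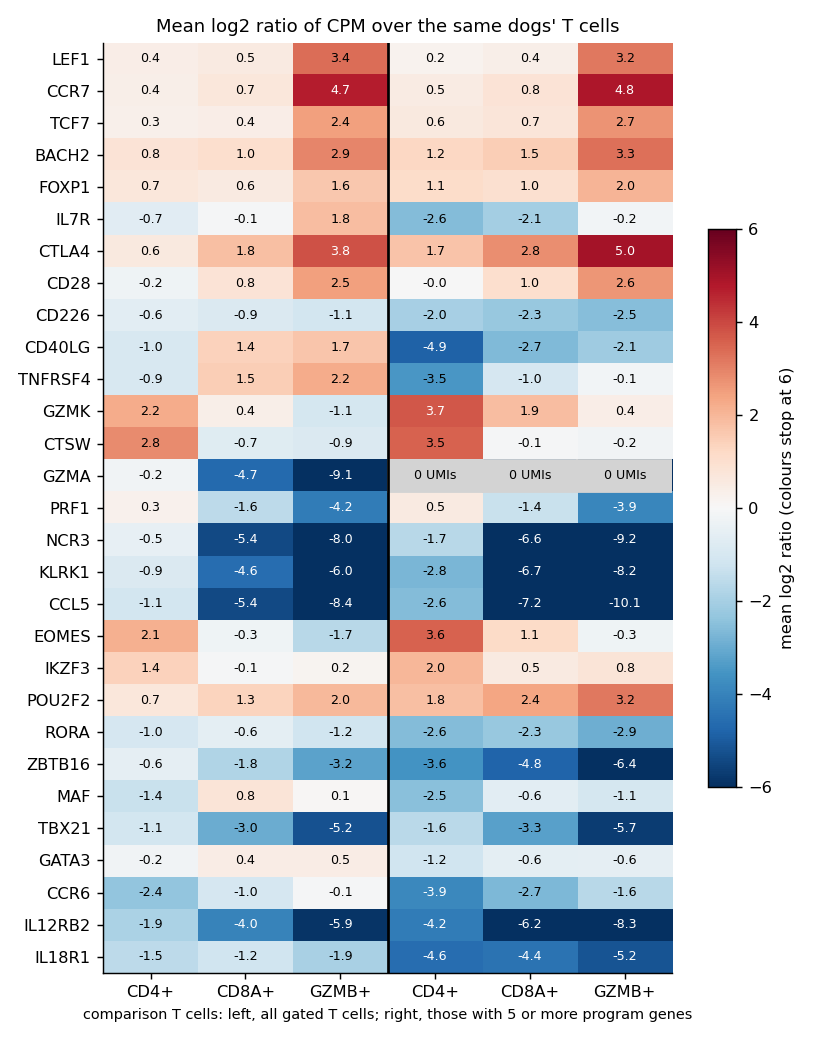
Mean log2 ratio (color) of gated T cells (left 3 columns) and high-program cells (right 3 columns) to CD4+, CD8A+ and GZMB+ T cells for genes in groups by role. Grey cells mark a gene with 0 UMIs in high-program cells (GZMA), the color scale stops at 6, and CTLA4, GZMK, CTSW and EOMES are above 0 against CD4+ T cells in both sets, while RORA and IL18R1 are below 0.

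Of 20 listed genes of the T cell receptor complex and its proximal signalling, 13 were measured. Of these, none was counted against CD4+ or CD8A+ T cells in either direction, in gated or high-program cells, and CD2, an adhesion receptor, was lower against GZMB+ T cells (−1.15 ± 0.36). CD3D was at 369 ± 73.2 CPM in gated T cells and 415 ± 71.6 CPM in CD4+ T cells, and the kinase gene LCK at 112 ± 27.7 and 81.5 ± 14.4 CPM. Of the genes that respond to receptor signals none was counted against CD4+ (11 measured) or CD8A+ T cells (10 measured) and 1 each way against GZMB+ T cells (10 measured), and in high-program cells TNFAIP3, a brake on NF-kappaB signalling, was lower against all 3 (−2.38 ± 1.52, −1.93 ± 1.60 and −2.51 ± 1.67) and no other gene of the list was counted. No gene of the 10 on the cell cycle list was counted in any comparison.

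CTLA4 is also a gene of regulatory T cells, and the rest of that list was examined for this reason. FOXP3, their defining transcription factor, gave 9 UMIs in gated T cells (0.393% of cells) and 1 UMI in high-program cells, at 1.57 ± 3.04 CPM in gated and 1.51 ± 0.518 CPM in CD4+ T cells. The 116 CD4+ T cells with a FOXP3 UMI, pooled, had 303 CPM of CTLA4, 42.4 of IL2RA and 669 of IKZF2. IL2RA, the interleukin-2 receptor chain of regulatory T cells, was at 17.7 ± 15.7 CPM in gated and 4.47 ± 10.2 CPM in high-program cells, and IKZF2 (Helios) at 248 ± 321 CPM in gated T cells and 0 to 277 CPM in high-program cells. Of the 12 listed genes measured against CD4+ T cells none was counted in gated T cells (median −0.43), and against CD8A+ and GZMB+ T cells (11 genes each) 1 was higher and none lower, and 2 were higher and 1 lower. The CTLA4 level of FOXP3+ CD4+ T cells thus lay within the range of high-program cells, whose mean IL2RA and IKZF2 were below the pooled levels of those cells.

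The 2 lists of gamma-delta T cell genes had been chosen by the study on the healthy dogs examined here and are not independent of them. Of the 10 genes of GATA3-high gamma-delta T cells none was counted against CD4+ or CD8A+ T cells in gated T cells, and FAT1 was higher against GZMB+ T cells (2.88 ± 1.33). Of the 12 genes of CD8-like gamma-delta T cells, CTSW alone was higher against CD4+ T cells and none was counted against the other two. In high-program cells 1 gene of the first list was higher than in CD4+ T cells and none lower, with a list median of −1.005 beside −0.32 over all genes. It was TGFBR3, a co-receptor for transforming growth factor beta (2.22 ± 0.94), at 112 ± 62.5 against 22.0 CPM in the same 14 dogs. Against GZMB+ T cells ZNF683 of the first list (−3.62 ± 1.53) and IKZF2 and ZNRF3 of the second were lower in high-program cells, and none of either list was higher. Against the other T cells without CD4, CD8A and GZMB UMIs, 3 genes of the first list were lower and none higher (median −1.82), and 1 of the second was higher and 1 lower. IKZF2, which is on the second list, varied from 12.5 to 1373 CPM between dogs in gated T cells.

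The interleukin-18 receptor genes and CCR6 were lower than in CD4+ T cells. Of 24 cytokine and receptor genes measured against CD4+ T cells, IL18R1 and IL18RAP, the chains of the interleukin-18 receptor, were lower and none was higher in gated T cells, and 1 was higher and 7 lower in high-program cells. IL18R1 stood at 38.2 to 142 CPM in CD4+ T cells, 8.07 to 58.2 CPM in gated T cells and 0 to 21.1 CPM in high-program cells, where it gave 9 UMIs. IFNGR1, the interferon-gamma receptor chain, was lower in high-program cells against all 3 populations (−2.57 ± 1.68, −2.56 ± 1.75 and −3.03 ± 1.78). IL21R and IL6R were higher in gated than in CD8A+ T cells (1.34 ± 0.69 and 1.26 ± 0.72), and against GZMB+ T cells 5 genes were higher and 4 lower. Of 20 homing receptors, CCR6, which guides type 17 cells to mucosa, was lower than in CD4+ T cells (−2.38 ± 0.89) and none was higher, in high-program cells 3 were lower and none higher than in CD4+ T cells, and against GZMB+ T cells 1 was higher (CCR7) and 3 lower. CCR6 gave 1 UMI in the 377 high-program cells (0.417 CPM over the pooled cells) and none in the 14 dogs with at least 10 of them, against 5.53 to 37.7 CPM in CD4+ T cells.

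By the rule for the largest differences at 50 CPM or more, the other genes highest above CD4+ T cells in gated T cells were AUTS2, BEND7 (1.06 ± 0.40), NBEA and 2 genes known only by identifier, ENSCAFG00000010895 (1.43 ± 0.63) and ENSCAFG00000007461 (1.27 ± 0.50). The genes furthest below were SERPINA1 (−2.17 ± 1.65), PRUNE2, RCAN2 (−1.58 ± 1.05), IL18R1 (−1.55 ± 0.77), MAF (−1.36 ± 0.86), PLVAP, ACOXL, ANTXR2, NEDD4 and RORA. SERPINA1 is also a gene of monocytes, and the study lists it together with CD4 among the markers of canine neutrophils. The CD4+ T cells were chosen by a CD4 UMI, and the part of myeloid transcripts in that choice was not tested. Above CD8A+ T cells stood SNX9, a sorting nexin of endocytosis (2.81 ± 0.94), SOBP, CARMIL1, PLCL1, a phospholipase C-like scaffold without catalytic activity (1.82 ± 0.65), VGLL4, TBC1D4, a regulator of glucose transporter traffic (1.42 ± 0.57), and ENSCAFG00000024259 beside MYB, CTLA4 and SESN3. Below them stood NCR3 (−5.42 ± 1.14), CCL5, KLRB1, KLRD1, KLRK1, DOCK5, IL12RB2, CCL4, SYTL2 and CLNK. Above GZMB+ T cells, SNX9 (4.33 ± 1.00), ZNF536, PLCL1 (4.11 ± 0.83), CSTA, RALGPS2 and CCDC3 followed CCR7, and TRPM3 and ENSCAFG00000028587 were among the genes furthest below.

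Against all 3 populations, 25 genes were higher and 32 lower in high-program cells, where 2 and 3 were for all gated T cells. The first counts need the same sign in 14 dogs and the second in 17, and in the same 14 dogs gated T cells again gave 2 and 3. With 10 CPM added in place of 1, high-program cells gave 22 and 25. The genes named from these lists in this paragraph were chosen after their values were seen. The higher genes were led by MYB (4.61, 3.71 and 5.23), WIPF3 (3.84, 3.68 and 4.56), YAP1, the Hippo pathway coactivator (3.36, 3.46 and 3.92), SESN3 (2.75, 2.72 and 3.19) and POU2F2 (1.82, 2.37 and 3.18). PLCL1 was at 1603 ± 747 CPM, GCNT2 at 98.2 ± 35.8 CPM and the kinase gene PRKCE at 1178 ± 314 CPM. The lower genes included the receptor gene IL18RAP (−3.99, −4.13 and −5.23), TRAT1, a T cell receptor adaptor (−2.80, −2.84 and −3.86), HOPX (−1.47, −1.85 and −2.29) and TMSB10 (−1.56, −1.18 and −1.34). In the 14 dogs with at least 10 such cells, VSTM1 gave 0 UMIs, and NCR3 gave 1. Further genes above CD4+ T cells were ICA1 (3.27 ± 1.26), APP, FAM102B and EPB41L2, and TSHZ2, PTPN13, HNRNPLL, LGALS3, CXCL8 and FAR2 were among those furthest below. TSHZ2 gave 11 UMIs and was at 0 in 11 of 14 dogs, so its ratio per dog is set by the CPM added, and in pooled counts its log2 ratio was −3.59.

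**Figure D4:**
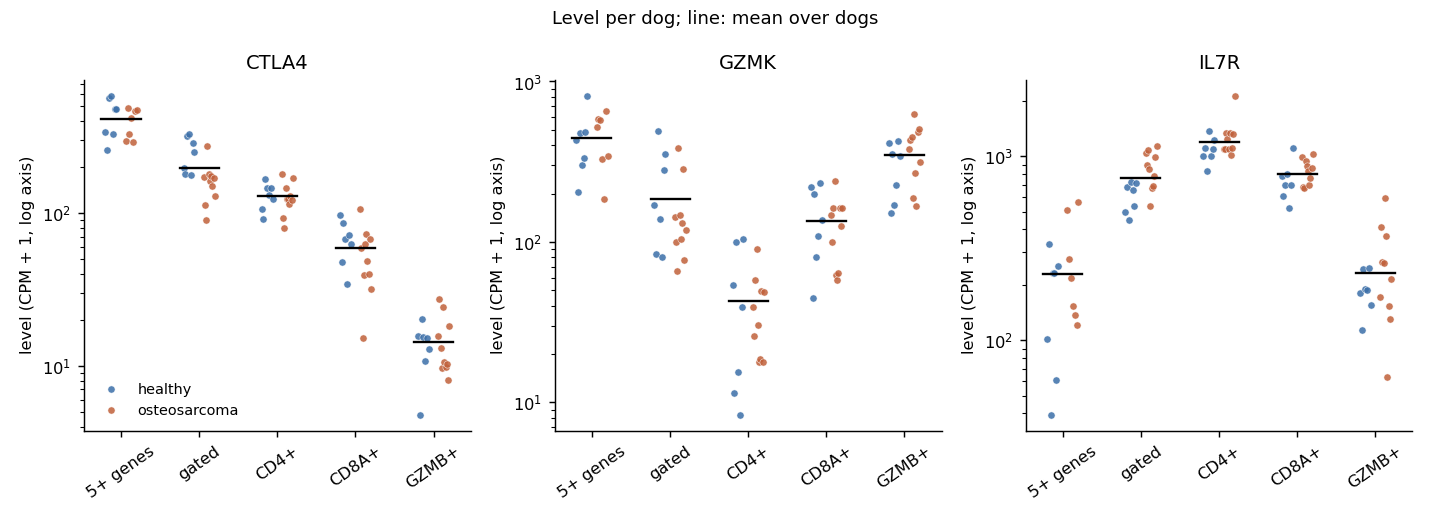
Level of CTLA4, GZMK and IL7R (CPM with 1 added, log axis) in high-program cells (5+ genes), gated T cells and CD4+, CD8A+ and GZMB+ T cells, with 1 point a dog, healthy dogs in blue, dogs with OS in orange and a line at the mean. CTLA4 in high-program cells (257 to 584 CPM) lay above CD4+ T cells (78.5 to 177 CPM), and IL7R in high-program cells (38.3 to 560 CPM) lay below them (828 to 2134 CPM).

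Whether these cells resembled each other beyond the genes of the gate was described by their nearest neighbours. Within each dog's T cells, 20 neighbours were found from 2000 variable genes without the 14 gate genes. Of the neighbours of a gated T cell, 21.5% ± 10.7 (SD, n = 17 dogs, 5.66 to 37.3) were gated T cells, where these made up 4.10% ± 1.70 of T cells, a mean of 5.55 times their share (2.22 to 9.54). By group, 23.0 to 37.3% of neighbours were gated T cells in healthy dogs and 5.66 to 31.7% in dogs with OS, which was not tested. Of the dogs with OS only dog 5 was above 19.3%. For cells with exactly 3 program genes 11.3% ± 6.14 of neighbours were gated T cells. Gated T cells lack CD4, CD8A and GZMB by choice, and among all such T cells of a dog they were 10.8% ± 5.35. Among such T cells near 3-gene cells they were 20.7% ± 9.44, near cells with 2 program genes, just outside the gate, 12.9% ± 5.78, and near high-program cells 60.0% ± 22.0. For high-program cells 25.5% ± 13.5 of neighbours were high-program cells (0 to 46.2), which made up 0.872% of T cells, a mean of 30.1 times their share. This mean includes dogs with few such cells, and the 0 came from dog 10 with OS, which had 2. Gated T cells were 45.1% ± 20.7 of the neighbours of high-program cells (up to 75.1), beside the 11.3% of those of 3-gene cells. CD4+ T cells were 30.5% ± 8.25 of the neighbours of 3-gene cells, close to their 28.9% ± 7.04 of all T cells, and 11.6% ± 8.03 of those of high-program cells.

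Markers of other cells were counted in the same sums. Of 8 B cell and plasma cell genes, 5 NK cell genes and the platelet and erythrocyte genes measured, none was counted in gated T cells against CD4+ T cells, and of 11 monocyte and neutrophil genes SERPINA1 was lower. The median log2 ratio of these 11 genes to CD4+ T cells was −1.17 in gated and −2.55 in high-program cells, beside −0.08 and −0.32 over all genes. To CD8A+ T cells the list median was 0.37 in gated and −1.11 in high-program cells, and to GZMB+ T cells −0.44 and −1.76. In dogs, neutrophils and some monocytes express CD4 by the study's account, so a CD4 UMI in these barcodes need not come from a T cell. The summed B cell list lay between 3759 and 8381 CPM in healthy dogs (median 8041) and between 5447 and 9785 CPM in dogs with OS (median 8414), and CD79A made up most of it, at 7797 ± 1423 CPM, as in CD4+ T cells (8383 ± 1544 CPM), while CD79B was at 0 UMIs. The summed monocyte and neutrophil list lay between 824 and 3505 CPM in healthy dogs (median 1873) and between 605 and 2760 CPM in dogs with OS (median 1756). In high-program cells it reached 6636 CPM in healthy dog 6, where LYZ alone was at 3656 CPM. S100A8 alone had means in high-program cells of 1499 ± 613 TMM-scaled CPM in healthy dogs and 1793 ± 654.8 in dogs with OS. The summed list had medians of 1630 and 1830 CPM in these cells. The NK list summed to 9.84 to 26.4 CPM in healthy dogs and 15.4 to 50.8 CPM in dogs with OS, with 1 of 7 genes at 0 UMIs, and the platelet and erythrocyte list to 3.48 to 222 and 4.04 to 133 CPM. The part of these transcripts in the levels above was not tested.

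Gated T cells were then compared between dogs with OS and healthy dogs. As a share of retained leukocytes they made up a lowest, median and highest 1.60, 2.64 and 4.03% in healthy dogs and 0.773, 1.65 and 4.12% in dogs with OS. The means were 2.64% ± 1.04 (SD, n = 7) and 1.92% ± 0.991 (n = 10), and 8 of 10 dogs with OS were below the healthy median, but the groups overlapped (difference −0.717 points, exact two-sided Wilcoxon rank-sum p = 0.161, adjusted p = 0.161 over 2 shares). As a share of T cells they made up 3.01, 4.47 and 6.89% in healthy dogs and 1.43, 3.20 and 6.42% in dogs with OS, with means of 4.95% ± 1.51 and 3.50% ± 1.63 (difference −1.46 points, exact p = 0.0878, adjusted p = 0.161). Neither share passed the threshold of 0.05. Without healthy dog 6 the difference in T cells was −1.78 points (exact p = 0.0420), and without dog 3 with OS, which had the fewest barcodes, it was −1.78 (exact p = 0.0418). A lower share of double-negative T cells in OS was already known from these dogs, and these values are not independent support for it.

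With more of the program required, the groups overlapped less. The program genes came from gene lists that the study had made on the healthy dogs, so these counts of genes are not independent of one of the groups compared. With at least 4 of 9 genes the share of T cells was 1.54 to 3.81% in healthy dogs (median 2.32) and 0.377 to 2.77% in dogs with OS (median 0.949), with 9 of 10 dogs with OS below the healthy median (difference −1.25 points, exact p = 0.00967). High-program cells made up a lowest, median and highest 0.918, 1.39 and 2.02% of T cells in healthy dogs and 0.0753, 0.504 and 0.966% in dogs with OS, and all 10 dogs with OS were below the healthy median. Their share of leukocytes was 0.404 to 1.09% in healthy dogs (mean 0.698) and 0.0407 to 0.565% in dogs with OS (mean 0.302). With at least 6 genes the groups did not overlap, at 0.542 to 1.18% of T cells in healthy dogs and 0.0377 to 0.483% in dogs with OS. Because the thresholds of 5 and 6 genes were chosen after these values were seen, they are given as a description. The p for at least 4 genes is not adjusted over settings.

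The makeup of the gated T cells also differed in its values. High-program cells were 27.0% ± 3.59 of gated T cells in healthy dogs (23.3 to 31.7) and 16.1% ± 7.14 in dogs with OS (5.26 to 32.6, with all but dog 4 with OS at 18.3 or less), while cells with exactly 3 program genes were 50.3% ± 4.21 (44.7 to 58.5) and 66.6% ± 7.40 (55.8 to 78.8), with no dog with OS below the healthy median. A cell is counted by the number of program genes in which at least 1 UMI was caught, so fewer cells with the program and lower expression of the program per cell cannot be told apart in these shares. Cells with at least 2000 UMIs were also thinned to that depth, and the others were left out (117 to 1330 retained barcodes a dog). The share of T cells with at least 3 genes then differed by −1.08 points (medians 2.12 and 0.710%, unadjusted exact p = 0.00679). Thinning also made the gate stricter, as the mean healthy share fell from 4.95 to 2.15%, so depth alone was not compared.

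**Figure D5:**
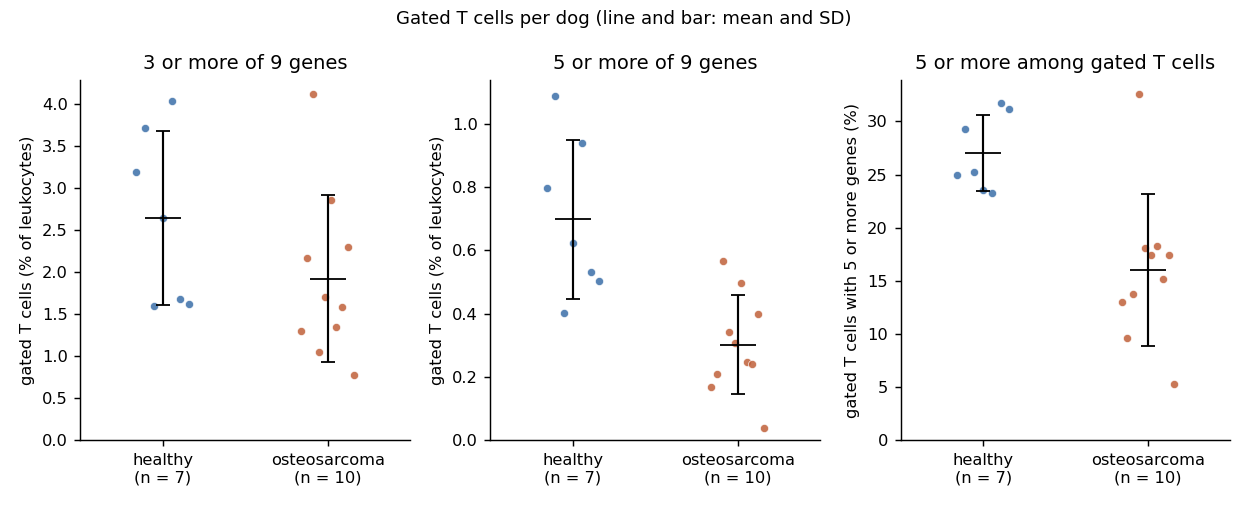
Gated T cells (left) and high-program cells (middle) as percent of retained leukocytes, and high-program cells as percent of gated T cells (right), with 1 point a dog and the mean and SD of each group. Gated T cells overlapped between groups (1.60 to 4.03% and 0.773 to 4.12%), and of the dogs with OS dog 4 alone had as high a percent of high-program cells among gated T cells (32.6%) as the healthy dogs.

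Age was examined because the study raised it as an alternative to disease. Among the 10 dogs with OS the share of leukocytes that were gated T cells had a Pearson correlation with age of −0.531 (permutation p = 0.112) and a Spearman correlation of −0.547 (p = 0.106), and the share of T cells had −0.483 (p = 0.158) and −0.499 (p = 0.146). For high-program cells the correlations were −0.394 (p = 0.260) and −0.340 (p = 0.335) for leukocytes and −0.326 (p = 0.353) and −0.413 (p = 0.233) for T cells. None passed, with adjusted p-values over these 8 coefficients between 0.316 and 0.353. The 2 dogs farthest from the median age were the 2 oldest, so leaving them out narrowed the range of ages from above only. Without them, gated T cells had a Pearson correlation of −0.516 (permutation p = 0.191) and a Spearman correlation of −0.635 (p = 0.0992) for leukocytes, and −0.649 (p = 0.0835) and −0.755 (p = 0.0376) for T cells. High-program cells then had −0.669 (permutation p = 0.0719) and −0.731 (p = 0.0481) for leukocytes, and −0.742 (p = 0.0377) and −0.707 (p = 0.0604) for T cells. These p-values are unadjusted, and 3 of the 8 were below 0.05. With the 5 dogs with OS under 9 years alone, the shares of leukocytes and T cells differed from those of healthy dogs by −0.196 (exact p = 0.639) and −0.559 points (exact p = 0.530). In the same 5 dogs high-program cells were 0.499 to 0.966% of T cells (median 0.686), and all 5 lay below the healthy median of 1.39%.

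Expression within gated T cells was compared between the groups in all 17 dogs with edgeR's quasi-likelihood test on counts summed per dog. No gene of 11168 passed an adjusted p below 0.01 with a log2 change beyond 0.58 (0% called), 512 genes had an unadjusted p below 0.05 (4.58%), and DESeq2 called 0 as well, with 380 genes under 0.05. CTLA4 was at 247 ± 69.2 TMM-scaled CPM in healthy dogs and 163 ± 56.5 in dogs with OS (log2 fold change −0.59, SE 0.19, adjusted p = 0.826). POU2F2 had a log2 fold change of −0.74 (SE 0.22) and IL7R one of 0.54 (SE 0.16), each with an adjusted p of 0.750. CTLA4 and POU2F2 were also higher, and IL7R lower, in high-program cells than in all gated T cells, and a change per cell cannot be told apart from the different makeup of the groups. Within high-program cells (7 against 7 dogs with at least 10 cells) the log2 fold changes were −0.18 for CTLA4, −0.15 for POU2F2 and 0.61 for IL7R, given as a description. The program genes are not compared between the groups within gated T cells, because their UMIs had admitted the cells.

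The smallest p-values belonged to PLAAT4 (log2 fold change 1.44), CASR (1.71) and OSBPL6 (1.06) among genes higher in OS, each with an adjusted p of 0.750 by edgeR (OSBPL6 was also counted lower in high-program cells against all 3 populations, and the limit on makeup holds for it), and to IGKC (−7.78, adjusted p = 0.123), ENSCAFG00000014011 (−2.06, adjusted p = 0.123) and CXCL10 (−3.57, adjusted p = 0.344) among those lower. IGKC is an immunoglobulin light chain gene, and its high values came from 1 cell in each of 3 healthy dogs. In healthy dog 4 that cell held 3820 of 3856 IGKC UMIs, with 61 UMIs of MZB1 and 21 of JCHAIN, both genes of plasma cells. In healthy dogs 6 and 7 it held 23 of 24 and 32 of 33 IGKC UMIs, and both cells were marked as doublets. Without healthy dog 4 its log2 fold change was −2.73, and a fit without these 3 cells was not run.

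The program genes were also compared in sums over all T cells, which were chosen by CD3E and MS4A1 alone and by none of the 9 program genes. No gene of 15512 was called by edgeR (0%), 590 had an unadjusted p below 0.05 (3.80%), and DESeq2 called 0, with 578 genes under 0.05. Of the program genes BICDL1 (log2 fold change −0.36), NMB (−0.59) and KANK1 (−0.67) had unadjusted p-values of 0.00569, 0.0253 and 0.0350, each with an adjusted p of 0.999. CTLA4 had a log2 fold change of −0.13. With 1 dog left out at a time, the other program genes lay at −0.295 to −0.0999 (KIAA0825), −0.973 to −0.150 (TMEM132D), −0.412 to −0.135 (KIAA1549), −0.0858 to −0.0223 (SLF1), −0.179 to 0.0468 (SYNJ2) and −0.0861 to 0.191 (ID3). In all T cells NMB lay at 10.9 to 35.1 CPM in healthy dogs and 10.9 to 32.4 CPM in dogs with OS, and these overlapped almost wholly. The smallest p-values in these sums were those of RAP2B, CLEC4E and CTSH among genes higher in OS and of CAVIN4, MSANTD3-TMEFF1 and PALD1 among those lower, none with an adjusted p under 0.258.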

How the data were processed

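Leukocytes of 7 healthy dogs and 10 dogs with OS had been sequenced on the 10x platform. The authors counted reads with Cell Ranger 7.0.0 on CanFam3.1 and deposited 1 matrix of raw UMI counts per gene and barcode for each dog, without normalization. Counting had been run both including and excluding introns. Which run gave the matrices is not given in the sources used here. The 17 matrices held 93013 barcodes and 634124025 UMIs. Barcodes with 200 to 4500 genes, 500 to 20000 UMIs and under 10% mitochondrial counts were kept. Groups and replicate numbers came from the labels and ages from the study. The labels give 1 sample per dog.

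The gate, the gene lists and the thresholds were chosen with earlier results of these data known. Genes were named by a rule: the 14 gate genes, listed genes with the largest mean log2 ratio and CTLA4, the 10 largest log2 ratios each way at 50 CPM or more, and, where no gene was called between groups, the 3 smallest p-values each way. Shares were compared by Wilcoxon's rank-sum test (exact, two-sided), which can give a p no smaller than 0.000103 here. Counts summed per dog (at least 25 cells, genes with at least 10 counts) were tested with edgeR 4.0.16 after TMM scaling, with Benjamini-Hochberg adjustment over all genes tested. Correlations used 100000 permutations. Neighbours came from 30 principal components. Doublets were marked with Scrublet (scanpy 1.11.5), and were kept. GZMH, GZMM, NKG7, KLF2, LAIR1 and ID2 were not analysed here, having no entry under these names. Some genes measured in the lists are not reported here. Alternatives were another number of program genes, no condition on GZMB, no limits on barcodes, doublets removed, thinning, other tests and filters, DESeq2 1.42.0, age and sex as covariates, the replicate number as a block and dogs left out 1 at a time. The procedures were tested on simulated data, where edgeR recovered 100% of 200 genes changed by 2 on the log2 scale at 20 CPM or more, with 1 false call of 10922 genes in gated T cells. The simulation held no smaller changes and no outlying single cells or dogs, so it does not show how smaller changes would be found. Python 3.11.15, scipy 1.17.1 and R 4.3.3 were used.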

Additional observations from a re-analysis of the deposited data

Results flagged for a closer look

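In groups of 7 or 10 dogs, a value was picked out when its gap to the nearest other dog was large beside the group's range (Dixon's criterion at 95%). This held for 10 of 48 groups tested (20.8%). Chance alone picks out about 1 in 20 groups of separate, normally spread values. Several of these measures share cells, and the gate used the program genes, so 20.8% cannot be set against that rate. Dog 4 with OS stood apart in 3 of them. High-program cells were 32.6% of its gated T cells, against 18.3% in the next dog with OS. In its gated T cells NMB was at 376 TMM-scaled CPM (next 215) and CTLA4 at 298 (next 180). NMB had helped to admit these cells and CTLA4 rose with the number of program genes, so the 3 values are not separate findings. It gave 43 gated T cells.

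In dog 5 with OS 31.7% of the neighbours of gated T cells were gated T cells (next 19.3%). This percent was not divided by the dog's share of gated T cells. Dog 3 with OS had 1239 retained barcodes (next 4105 among dogs with OS). KANK1, whose UMIs had helped to admit the cells, was at 273 TMM-scaled CPM in gated T cells of dog 9 with OS (next 182). IGKC was at 3895 in healthy dog 4 (next 68.6) and at 16.7 in dog 8 with OS (next 3.39). In healthy dog 4 that value came from 1 cell with 18738 UMIs and 6 program genes, not marked as a doublet. ENSCAFG00000014011 was at 59.1 in healthy dog 1 (next 21.6). CXCL10 was at 1.14 in dog 6 with OS and 0 in the other dogs with OS.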

How the results depend on the processing

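Of 176 values under alternative settings (142 planned, 34 added after seeing the data), 135 were counted as unchanged, 16 passed a threshold that the main value did not and 25 moved. Unchanged meant the same direction and side of 0.05 for shares, and the same side for correlations. For counts of genes it meant a count within a fixed ratio of the main count, and for other percentages a value within the SD over dogs. No main test had passed its threshold, so none could fall below it. No tested difference or correlation turned its sign. Of the values with no test, the excess of lower over higher genes against CD4+ T cells and the order of the CD4 shares with and without the program turned (with 10 CPM added and with thinning). For the difference in the share of leukocytes (main −0.717 points) and of T cells (main −1.46), the exact p passed 0.05 with at least 4 genes (−0.626, p = 0.00967, and −1.25, p = 0.00967), with cells thinned to 2000 UMIs (−0.494, p = 0.00967, and −1.08, p = 0.00679) and, for T cells only, with no condition on GZMB (−1.57, exact p = 0.0431). Added after seeing the data, it also passed with at least 5 genes (−0.396, p = 0.00123, and −0.772, p = 0.000411), at least 6 (−0.251 and −0.491, both p = 0.000103, the smallest this exact test can give), 5 genes thinned (−0.0899, p = 0.0250, and −0.194, p = 0.0136) and 5 genes with dogs with OS under 9 years alone (−0.307, p = 0.0303, and −0.618, p = 0.0101). These added settings are among the 16. Their thresholds were chosen after the group values were seen, on genes picked in the healthy dogs. Their p-values are a description and not support for a difference. The planned settings rest on the same genes, and no p-value of an alternative is adjusted over settings, so these are not independent support either. Thinning with 3 genes still required was also a stricter gate, since the mean healthy share of T cells fell from 4.95 to 2.15%. Leaving out 1 dog gave −0.961 to −0.485 for leukocytes (exact p 0.0549 to 0.263) and −1.78 to −1.13 for T cells (exact p 0.0418 to 0.181, under 0.05 without healthy dog 6 or dog 3 with OS). With at least 2 genes the exact p was 0.601 for both shares.

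The replicate numbers pair no dogs by design. Deviations of same-numbered dogs correlated between −0.272 and 0.135 over 3400 genes, over 0.1 in 2 of 7 pairs, and 1 of 7 dogs correlated best with its own number. With the replicate block the shares differed by −0.560 (exact p = 0.422) and −1.20 (exact p = 0.281), edgeR called 3 genes in gated T cells (NCAM1, DLA88 and IGKC) and 0 in T cell sums. Leaving out 1 dog gave 0 to 1 calls in gated T cells, the 1 being NCAM1 without dog 8 with OS.

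Counts of genes against CD4+ T cells (main 19 higher, 28 lower) were 12 and 9 with 10 CPM added, 34 and 83 with at least 4 genes, 82 and 291 with at least 5, 69 and 115 with at least 5 and 10 CPM added, and 29 and 56 in the 14 dogs with at least 10 high-program cells. Against CD8A+ T cells (21 and 40) they were 13 higher with 10 CPM added and 49 and 98 with at least 5 genes (42 and 79 with 10 CPM added). Against GZMB+ T cells (189 and 399) 265 were lower with 10 CPM added and higher genes were 117 with at least 4 genes and 115 with at least 5 and 10 CPM added. The mean share over dogs with a CD4 UMI (main 35.7%) was 10.2% after thinning, 25.8% with at least 4 and 14.6% with at least 5 genes, and for CD8A (main 10.9%) 3.14% after thinning and 5.72% with at least 5. Without the 2 oldest dogs with OS the Pearson correlation of age with high-program cells among T cells was −0.742 (permutation p = 0.0377), and the Spearman correlations with gated cells among T cells (−0.755, p = 0.0376) and high-program cells among leukocytes (−0.731, p = 0.0481) also passed 0.05. The cause of these moves was not tested. Depth limits every count by number of program genes, since a gene expressed without a captured UMI is missed.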

Other observations

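NCAM1, which encodes the adhesion molecule CD56, was noticed after its values were seen. In gated T cells it lay between 2.38 and 27.6 CPM in healthy dogs (median 24.4) and between 0 and 25.5 CPM in dogs with OS (median 0), and 7 of 10 dogs with OS were below the lowest healthy dog. Dog 8 with OS had the 25.5 CPM. It was not called in all 17 dogs, and without dog 8 with OS its log2 fold change was −4.30 (edgeR adjusted p = 0.00239). The difference was not particular to these cells: CD4+ T cells had medians of 7.36 and 0.286 CPM and CD8A+ T cells of 27.2 and 0.216 CPM in healthy dogs and dogs with OS.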
